A study of Mus musculus with 2 samples.

Results

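Homeobox genes encode transcription factors that bind DNA through a homeodomain, and 44 of them with roles in the pancreas, the gut or the nervous system were followed in sorted islet cells of mutant mice, which the sample titles call beta cells. The 44 were taken by gene symbol from the 55487 genes that each library lists, and each symbol matched 1 gene. The question of the study was which genes of islet beta cells require the Myt (myelin) transcription factors when blood glucose is normal. Both libraries came from mice 2 months old that carried the floxed alleles MytF/F, Myt2F/F and Myt3F/F together with RipCre, and the labels say that males and females were pooled. Cre in RipCre is driven by the rat insulin promoter, which is active in insulin-producing cells. The source is labelled as islets and the cells as endocrine, purified by fluorescence-activated sorting after trypsin. The labels give 1 genotype for both libraries and no treatment. The libraries form 1 group. Controls were not analysed here, and no value below compares mutant with control cells. The second library is labelled a duplicate, with no word on whether other mice were used. The p-values below set the difference between these libraries against counting noise alone, and the variation between libraries does not enter them. The sex-linked genes differed between them. Xist, transcribed from the inactive X chromosome of females, stood at 5.01 CPM (counts scaled by the total of counted reads) in library 1 and 653 CPM in library 2, and the Y-linked Ddx3y stood at 102 and 64.2 CPM. Uty, Eif2s3y and Kdm5d were also lower in library 2. The low Xist of library 1 goes against its label of pooled sexes, and the libraries did not hold the same mix of male and female cells, so their spread is not technical alone. Each result between the libraries rests on both, and the part of sex in it was not tested.

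The homeodomain is a fold of helices whose last helix reads short AT-rich sites, often with the core TAAT. Members of the family act in combination: LIM and NK factors fix the identity of islet cell types, whereas TALE proteins bind beside other homeodomain proteins as partners. In the adult islet, Pdx1, Nkx6-1, Nkx2-2, Isl1, Pax6 and Mnx1 are known as factors of beta cells, Hhex as a factor of delta cells, and Irx1, Irx2 and Pou3f4 as genes of alpha cells.

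The libraries held 50121771 and 39003197 counted reads, and a count of 0 allows up to 0.0599 CPM in the first and 0.0769 CPM in the second, taking 3 reads as the limit. The floxed genes were counted in both, with Myt1 at 77.6 and 65.4 CPM, St18 (Myt3) at 72.7 and 56.5 CPM and Myt1l (Myt2) at 44.5 and 39.0 CPM. Gene counts sum all exons and do not check the deletion. All 8 beta-cell markers were at 1 CPM or more in both libraries, led by Ins2 at 103810 and 110908 CPM. Counts differed between the libraries beyond sampling noise, with a chi-square of 28.6 per tested gene where sampling alone gives 1 on average. The 12 acinar markers summed to 120 CPM in the first library and 531 CPM in the second. Of these, 10 had enough reads for the test described below. All 10 were called higher in library 2, against 1.91% of all tested genes. In bulk RNA, more cells of a type and more RNA per cell cannot be told apart. Hormones of other islet cells were also counted, with Sst at 1515 and 1100 CPM, Ppy at 632 and 879 CPM and Gcg at 462 and 330 CPM.

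Of the 44 homeobox genes, 32 were detected, meaning 1 CPM or more in both libraries. The same limit was reached by 24.4% of all listed genes and by 55.4% of protein-coding genes. The members' median level over the detected 32 was 18.7 TPM, against 14.8 TPM for all 13566 detected genes (TPM scales counts by gene length and by the library). A few genes carried most of the signal: the 5 highest took 68.8% of the members' summed TPM in library 1 and 71.5% in library 2, and Nkx6-1 alone took 28.3% and 30.8%. By mean TPM the order was Nkx6-1, Pdx1, Hopx, Nkx2-2, Pax6 and Isl1, in both libraries. Each of these 6 stood above the next in both libraries without overlap. Further down, many neighbours could not be ordered: of 31 steps between detected members, 14 were separate and in 17 the libraries of the neighbours overlapped. Meis3, Six5, Pbx2, Prox1 and Zfhx2, between 51.6 and 44.9 TPM in the mean, form 1 such run.

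**Figure D1:**
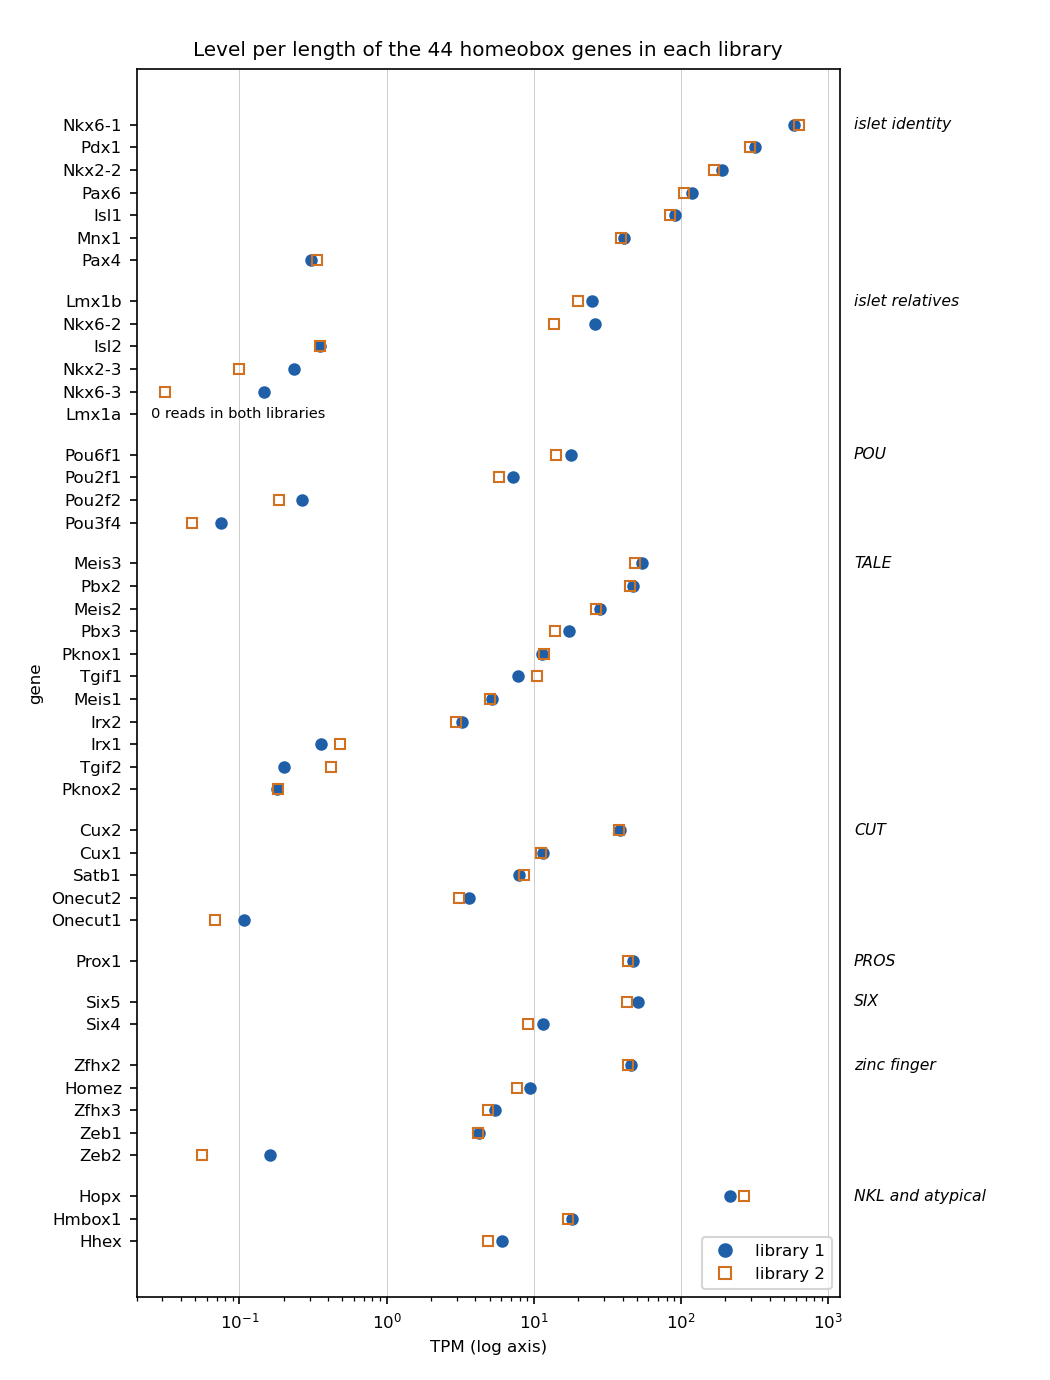
Level per length (TPM, log axis) of each of the 44 homeobox genes, grouped by class, with filled circles for library 1 and open squares for library 2. The 6 genes led by Nkx6-1 (586 and 628 TPM) sit at the right, the 12 genes that were not detected lie below 1 TPM, and Lmx1a has 0 reads in both libraries.

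Among the 7 islet factors, Nkx6-1, Pdx1, Nkx2-2, Pax6 and Isl1 were 5 of the 6 highest members per length, Mnx1 was intermediate and Pax4 was near the limit. Nkx6-1, which keeps beta cells from taking on alpha-cell features, had 667.6 CPM (95% interval 660.4 to 674.8) in library 1 and 723.9 CPM (715.5 to 732.4) in library 2, or 607 ± 29.8 TPM (SD, n = 2). Intervals here are exact Clopper-Pearson on the reads of 1 library and cover the counting error of reads only. Variation between libraries does not enter them. PCR copies of 1 molecule cannot be counted once without molecular identifiers, so the error in molecules is not fully covered either. Pdx1, an activator of insulin transcription, had 247 and 232 CPM and 304 ± 15.9 TPM. Nkx2-2, required for beta-cell specification, had 198 and 176 CPM, or 190 and 167 TPM. Pax6 and Isl1 followed. Pax6, a paired and homeodomain factor of hormone genes, had 499.8 and 447.0 CPM, so it ranked 2 by counts, but its exons span 11694 bases and its level per length was 111 ± 9.66 TPM, at rank 5. Isl1, a LIM factor of islet maturation, had 131 and 122 CPM and 87.7 ± 5.30 TPM. Mnx1, a factor of the dorsal pancreatic bud and of beta cells, was lower at 33.4 and 32.5 CPM and 40.1 ± 1.11 TPM, with overlapping intervals in the libraries (31.8 to 35.1 and 30.7 to 34.4 CPM). Pax4, which acts in endocrine precursors, stood apart from the others with 8 and 7 reads, 0.160 and 0.179 CPM. On the GRCm38 build, Nkx6-1 lies on chromosome 5 from 101658139 to 101664996 (minus strand), Pdx1 on chromosome 5 from 147269959 to 147275848 (plus strand) and Pax6 on chromosome 2 from 105668900 to 105697364 (plus strand), from the GENCODE M21 annotation.

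Close relatives of these factors were low or near the limit, apart from Lmx1b and Nkx6-2. Lmx1b, a LIM factor of serotonergic neurons and the kidney, had 44.5 and 36.3 CPM and 22.2 ± 3.40 TPM. Lmx1a, a LIM factor of midbrain dopaminergic neurons, had no read in either library. Nkx6-2, a relative of Nkx6-1 that acts in the developing nervous system and pancreas, had 17.9 CPM (95% interval 16.7 to 19.1) in library 1 and 9.61 CPM (8.67 to 10.6) in library 2. Isl2, known from motor neurons, had 14 and 11 reads, 0.279 and 0.282 CPM. Nkx2-3, a factor of the gut wall and spleen, had 9 and 3 reads, and Nkx6-3, a factor of the stomach, had 6 and 1 reads. Of these 6 relatives, 2 were detected.

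Sequence upstream of the start is shown for Isl1 and Isl2, because this pair differed widely in level, and for Nkx6-2, because it had the largest ratio between the libraries among the detected members. Each run covers 240 bases that end 10 bases before the RefSeq start, 5′ to 3′ on the gene's own strand (GRCm38.p6), at chr13:116309699-116309938 (minus strand) for Isl1, chr9:55540899-55541138 (plus strand) for Isl2 and chr7:139582808-139583047 (minus strand) for Nkx6-2, and holds no annotated exon base. Capitals mark the homeodomain core TAAT or its complement ATTA:
Isl1: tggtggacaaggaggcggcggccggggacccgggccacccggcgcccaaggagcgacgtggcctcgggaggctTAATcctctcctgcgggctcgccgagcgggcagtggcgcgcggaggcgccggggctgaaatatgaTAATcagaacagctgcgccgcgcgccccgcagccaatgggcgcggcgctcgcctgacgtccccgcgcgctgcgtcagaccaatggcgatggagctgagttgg
Isl2: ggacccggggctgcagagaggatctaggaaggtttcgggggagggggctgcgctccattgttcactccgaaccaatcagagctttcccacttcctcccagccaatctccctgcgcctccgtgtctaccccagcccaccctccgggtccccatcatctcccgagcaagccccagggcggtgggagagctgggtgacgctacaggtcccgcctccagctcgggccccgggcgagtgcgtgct
Nkx6-2: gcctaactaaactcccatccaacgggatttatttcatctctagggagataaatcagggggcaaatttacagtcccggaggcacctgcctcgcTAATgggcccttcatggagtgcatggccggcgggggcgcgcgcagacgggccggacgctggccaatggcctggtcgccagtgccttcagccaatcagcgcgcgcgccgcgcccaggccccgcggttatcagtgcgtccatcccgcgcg
By GENCODE M21 the Isl2 run lies inside the Isl2 gene, which spans 55538672 to 55546180, and so not upstream of every annotated start. The Isl1 run holds 2 matches on either strand, the Nkx6-2 run 1 and the Isl2 run 0. All 3 are GC-rich, at 72.1%, 67.1% and 64.2% G+C with 33, 15 and 24 CpG, against medians of 52.1% and 5 CpG over all 32851 RefSeq promoters of that length. RefSeq gave promoters for 35 of the 44 members (53 starts, median 59.6% G+C and 14 CpG). TAAT, searched on both strands, was in 26 of the 53 (49.1%) and in 54.2% of all promoters. AAGTT, the core bound by the Myt zinc fingers, was in 16 of the 53 (30.2%) and in 34.4% of all, and in none of the 3 runs above. In 1 of the 53 starts a TAAT and an AAGTT match shared bases. A match is only a description of the letters in this window.

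Among the 4 POU genes, the broadly expressed ones were detected. Pou6f1 had 44.8 and 36.2 CPM and 15.98 ± 2.54 TPM. Pou2f1 (Oct-1), a factor of most tissues, had 43.4 and 35.3 CPM but only 6.49 ± 0.993 TPM, as its exons span 16597 bases. Pou2f2 (Oct-2), known from B cells, had 40 and 22 reads, 0.798 and 0.564 CPM. Pou3f4, a gene of alpha cells, had 4 and 2 reads, in libraries where glucagon (Gcg) stood at 462 and 330 CPM.

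Of 11 TALE genes, whose homeodomain carries a loop of extra residues, 8 were detected. Meis3, a Pbx partner studied in beta-cell survival, was the highest per length with 54.6 and 48.6 TPM, although Meis2 had more reads, at 123 and 116 CPM against 62.8 and 56.7 CPM. Meis1, known from blood progenitors, had 19.9 and 19.5 CPM. The Pbx proteins bind DNA together with Meis and Pdx1. Pbx2 had 62.5 and 59.9 CPM and Pbx3 had 38.1 and 31.4 CPM. Pknox1 (Prep1), a further Pbx partner, had 28.5 and 30.0 CPM, whereas its relative Pknox2 had 34 and 27 reads, 0.678 and 0.692 CPM. Tgif1, a corepressor of Smad signalling, had 15.9 and 21.8 CPM, and Tgif2 had 14 and 23 reads. The count of Tgif2 is uncertain, since 61.6% of its exon bases lie over the opposite-strand gene 5430405H02Rik. Irx2 had 3.87 and 3.56 CPM and Irx1 had 0.339 and 0.462 CPM. The 9 alpha-cell markers, which include Irx1 and Irx2, summed to 1429 and 1195 CPM with 8 detected. The part of these other cells in the Irx levels was not tested.

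The CUT class and Prox1 were mostly well represented. Cux2, a marker of upper-layer cortical neurons, had 142 and 139 CPM and 38.1 ± 0.742 TPM. Cux1, its broadly expressed relative, had 83.4 and 82.7 CPM but 11.4 ± 0.169 TPM over 20024 exon bases. Satb1, an organiser of chromatin in T cells, had 54.9 and 60.3 CPM. Onecut2 had 21.5 and 18.4 CPM. Onecut1 (HNF6), a factor of endocrine progenitors and ducts, had 8 and 4 reads. The same-strand gene model Gm20649, which had 0 reads, covers 52.8% of its exon bases. How reads in shared exons were assigned was not given, so the count of Onecut1 is uncertain. Among 8 ductal markers, 6 were detected and their sum was 885 and 1230 CPM, mostly Spp1 with 659 and 967 CPM. Prox1, a factor of pancreatic progenitors and lymphatic vessels, had 143 and 134 CPM and 45.2 ± 2.29 TPM. Both sine oculis homeobox genes, known from muscle, were detected, with Six5 at 50.7 and 43.2 TPM and Six4 at 11.6 and 9.13 TPM.

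Zinc-finger homeobox genes ranged from abundant to near absent. Zfhx2, a large neuronal factor, had 302 and 293 CPM, at rank 3 of the members by counts, and 44.9 ± 1.36 TPM. An antisense gene, Zfhx2os, covers 17.9% of its exon bases but had only 6 and 1 reads. Zfhx3, known for its role in the circadian centre of the brain, had 41.5 and 37.5 CPM. Homez, which joins homeodomains with leucine zippers, had 20.1 and 16.5 CPM. Zeb1, a repressor of epithelial genes, had 15.8 CPM in each library. Zeb2, a related repressor, had 59 reads (1.18 CPM) in library 1 and 16 reads (0.410 CPM) in library 2, so it passed the limit in 1 library only.

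The remaining members were Hopx, Hhex and Hmbox1, all detected. Hopx, a small homeodomain protein that does not bind DNA itself, had 117 CPM (95% interval 114 to 120) in library 1 and 148 CPM (144 to 152) in library 2. With only 1516 exon bases its level per length was 239 ± 36.8 TPM, above Nkx2-2. Hopxos, an antisense gene that lies over 27.2% of these bases, had 8.84 and 17.8 CPM. The kit named in the labels does not mark strand, so reads of the pair cannot be told apart where they overlap. Hhex, the delta-cell factor, had 11.1 and 9.02 CPM, beside Sst at 1515 and 1100 CPM. All 6 delta-cell markers, which include Hhex and Pdx1, were detected. They did not move together: 4 were lower in library 2, whereas Lepr (6.92 and 23.4 CPM) and Ghsr (2.97 and 3.38 CPM) were higher. Lepr, with a log2 ratio of 1.75, was called higher by the test described below, as were 1.91% of all tested genes. Hmbox1, a protein that binds telomeric repeats, had 63.8 and 60.8 CPM.

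Within families, reads were divided unequally. Of 18 fixed pairs of related members, 17 differed 2-fold or more per length in the same direction in both libraries, and 11 differed 10-fold or more. Pairs were chosen with earlier results of these data known, so their ratios are descriptive. Nkx6-1 exceeded Nkx6-2 22.7-fold (95% interval 21.2 to 24.3) in library 1 and 45.8-fold (41.3 to 50.8) in library 2, and these intervals do not overlap. Isl1 exceeded Isl2 261-fold (155 to 477) and 240-fold (134 to 480). Pax6 exceeded Pax4 387-fold (196 to 896) and 308-fold (149 to 766). Nkx2-2 exceeded Nkx2-3 810-fold (427 to 1773) in library 1 and, against 3 reads, 1686-fold (577 to 8176) in library 2. Against Nkx6-3 the ratio of Nkx6-1 was 3977-fold (1827 to 10839) in library 1 and, against 1 read, 20138-fold (3614 to 795425) in library 2. For Lmx1b over Lmx1a only a bound can be given, at least 507-fold and 322-fold higher, with 3 reads in place of 0 in each library. In 5 of these 6 pairs the relative was not detected, and the exception was Nkx6-2, at 25.8 and 13.7 TPM.

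In the other classes 1 relative also led. Pknox1 exceeded Pknox2 62.7-fold and 64.7-fold, and Pou2f1 exceeded Pou2f2 27.0-fold and 31.1-fold. Onecut2 exceeded Onecut1 34.1-fold and 45.4-fold, with the limit on Onecut1 given above. Zeb1 exceeded Zeb2 26.4-fold (20.2 to 35.0) in library 1 and 75.9-fold (46.4 to 134) in library 2, again without overlap of the intervals. Tgif1 exceeded Tgif2 38.8-fold and 25.2-fold, with the limit on Tgif2 given above. Smaller ratios were found for Irx2 over Irx1 (9.11-fold and 6.16-fold), Zfhx2 over Zfhx3 (8.41-fold and 9.03-fold), Meis2 over Meis1 (5.40-fold and 5.21-fold), Six5 over Six4 (4.37-fold and 4.74-fold), Cux2 over Cux1 (3.37-fold and 3.35-fold) and Pbx2 over Pbx3 (2.75-fold and 3.20-fold). For Pbx2 over Pbx3 the intervals, 2.60 to 2.91 and 2.99 to 3.44, also did not overlap. Meis3 over Meis2 was the pair under 2-fold, at 1.95-fold and 1.85-fold. Without length scaling this order turned, with a log2 ratio of Meis2 over Meis3 of 0.9998.

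**Figure D2:**
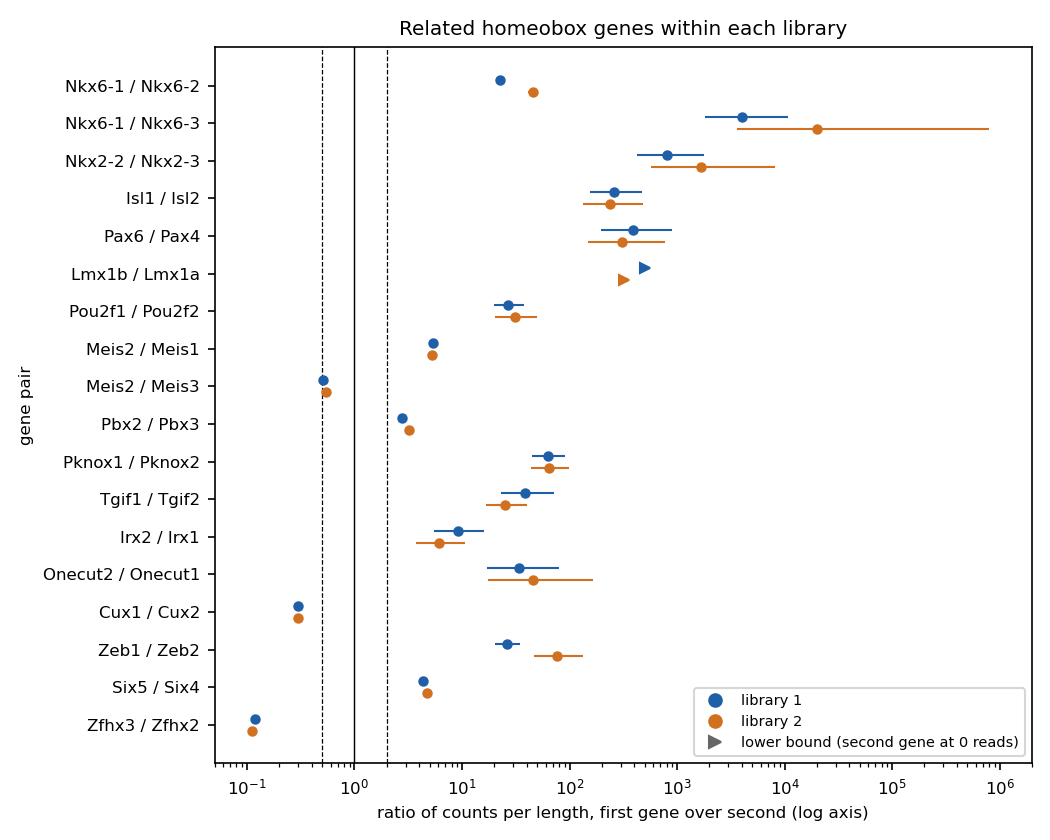
Ratio of counts per length (log axis) of the first gene over the second for 18 pairs, with blue for library 1 and orange for library 2; bars are exact 95% intervals of counting error, triangles are lower bounds, and dashed lines mark 2-fold. In 11 pairs both libraries lie 10-fold or more from 1, and the intervals of the libraries do not overlap for Nkx6-1 over Nkx6-2, Pbx2 over Pbx3 and Zeb1 over Zeb2.

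The members were also compared between the libraries. Each gene was compared by an exact two-sided binomial test of its reads against the library totals, adjusted over all 20681 genes with 10 or more reads, and called at an adjusted p under 0.05 with a ratio of 2-fold or more. This compares the reads of 2 libraries and not conditions. Of the 44 members, 41 had enough reads, and Nkx6-3, Lmx1a and Pou3f4 did not. Among the 41, 1 was called, Zeb2, against 4.31% of all tested genes. Its 59 and 16 reads gave a log2 ratio of library 2 over library 1 of −1.49 (exact binomial test, adjusted p = 0.000358). No member was called higher in library 2, where 1.91% of all tested genes were. Tgif2 (log2 ratio 1.06) and Nkx2-3 (−1.08) also passed 2-fold, but on 14 and 23 reads and on 9 and 3 reads, with adjusted p of 0.0835 and 0.425 by the same exact binomial test.

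Zeb2 is known to act in mesenchymal, endothelial and immune cells, whose summed markers stood lower in library 2. The 8 mesenchymal markers summed to 15.96 and 10.7 CPM with 5 detected, the 8 endothelial markers to 31.1 and 22.7 CPM with 6 detected, and the 8 immune markers to 52.7 and 44.3 CPM with 2 detected, none of them at 0 in both libraries. Most of the immune sum was C1qa, at 39.1 and 35.3 CPM. Enough reads for the test were present for 8 mesenchymal, 8 endothelial and 5 immune markers. Of these, 3 were called lower and none higher, against 2.4% and 1.91% of all tested genes. The 3 were Col1a2 (3.93 and 1.46 CPM), Pecam1 (3.07 and 1.33 CPM) and the immune gene Lyz2 (0.678 and 0.231 CPM). The endothelial Kdr went the other way, with 1.64 and 2.49 CPM and a log2 ratio of 0.60 (exact binomial test, adjusted p = 0.0192), and Flt1 had 1.84 and 2.36 CPM. Their part in the Zeb2 difference was not tested.

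With no limit on the ratio, more members passed. An adjusted p under 0.05 at any ratio was reached by 24 of the 41, 20 lower and 4 higher in library 2, against 32.4% of all tested genes (19% lower and 13.4% higher). Members were read more deeply than most genes, with a median of 46.3 CPM among the detected against 23.5 CPM for all detected genes. The part of depth in the number that passed was not tested. The 4 higher were Nkx6-1 (log2 ratio 0.12), Hopx (0.33), Tgif1 (0.45) and Satb1 (0.13). Among the 20 lower, Nkx6-2 had the largest ratio of a detected member, −0.89 on the log2 scale or 1.86-fold lower in library 2 (exact binomial test, adjusted p = 5.67e-24), under the 2-fold limit. Six4 (−0.33), Pou6f1 (−0.31), Hhex (−0.30), Pou2f1 (−0.30), Lmx1b (−0.30), Homez (−0.28) and Pbx3 (−0.28) followed. The median size of the log2 ratio was 0.14 for the detected members and 0.14 for all detected genes. Scaled with edgeR's TMM factors or DESeq2's size factors, 18 of the 41 passed at any ratio, 14 lower and 4 higher, and Isl1, Meis2, Pdx1, Prox1, Zfhx2 and Zfhx3 no longer did. Under these scalings the lower share of all genes that passed went from 58.7% to 45.3% and 44.9%.

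**Figure D3:**
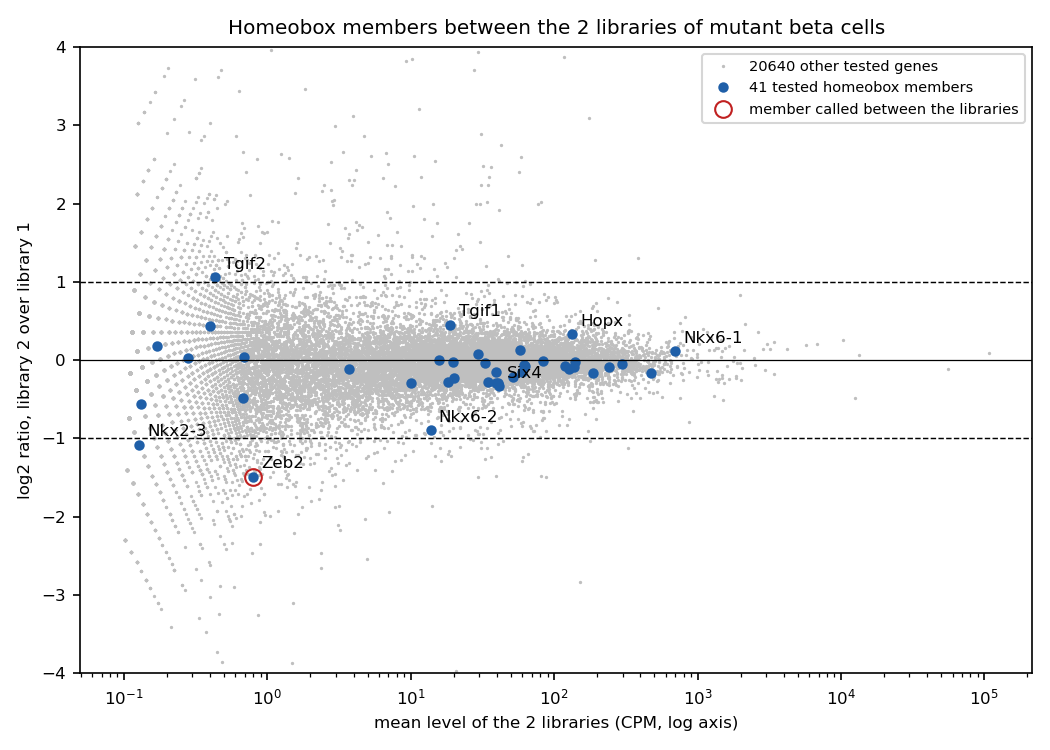
Log2 ratio of library 2 over library 1 against the mean level (CPM, log axis) for 20640 other tested genes (grey) and the 41 tested members (blue), with dashed lines at 2-fold; 73 other genes lie outside the axis. Zeb2 (−1.49), circled, is the member called between the libraries, and Nkx6-2 (−0.89) lies just inside the line.

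Hopx and Nkx6-2, which differed between the libraries, lie over other genes. Hopxos was itself higher in library 2, with 443 and 695 reads and a log2 ratio of 1.01 (exact binomial test, adjusted p = 4.00e-30), while Hopx differed by 0.33. Nkx6-2 has 12.9% of its exon bases over Inpp5a on the opposite strand, and Inpp5a had 87.2 and 77.6 CPM with a log2 ratio of −0.17. Their part in the differences of Hopx and Nkx6-2 was not tested. In all, 6 members had over 10% of their exon bases on other genes of 1 strand. Meis1 had 8.51% on opposite-strand and 9.77% on same-strand genes, so its count is also uncertain. Of the 44, 29 had under 1% of their 50-base words in transcripts of other genes.

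The homeobox genes outside the 44 were mostly silent. Of 168 further genes, 22 were detected and 19 had no read in either library. None of the 39 HOX cluster genes, which set position along the body axis, was detected, and Hoxb4 came nearest with 1.30 and 0.487 CPM. In contrast, all 9 further zinc-finger homeobox genes were detected. Their highest were Tshz1 (80.2 and 77.2 TPM), Tshz2 (50.4 and 48.0 TPM, with 67.5% of its exon bases over an opposite-strand gene) and Zhx1 (36.1 and 33.8 TPM), with Zhx2 (19.9 and 21.5 TPM) and Adnp2 (20.7 and 17.3 TPM) behind. Barhl1, known from the developing brain and inner ear, was also among the 10 highest per length, with 16.05 and 16.7 TPM.

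Barx2, likewise among these 10, stood at 32.5 TPM in library 1 and 13.2 TPM in library 2, a log2 ratio of −1.28 (exact binomial test, adjusted p = 2.68e-55). Of the 58 with enough reads, 5 were called lower in library 2 and 1 higher, against 2.4% and 1.91% of all tested genes. Also called lower were Cdx4 (77 and 21 reads), Hoxb4 (65 and 19) and Pou3f1 (44 and 8). Pou3f3 was called higher, with 6 and 20 reads. Hoxb4, Pou3f1 and Pou3f3 lay below 1 CPM in the mean and are named because they belong to the count.

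**Figure D4:**
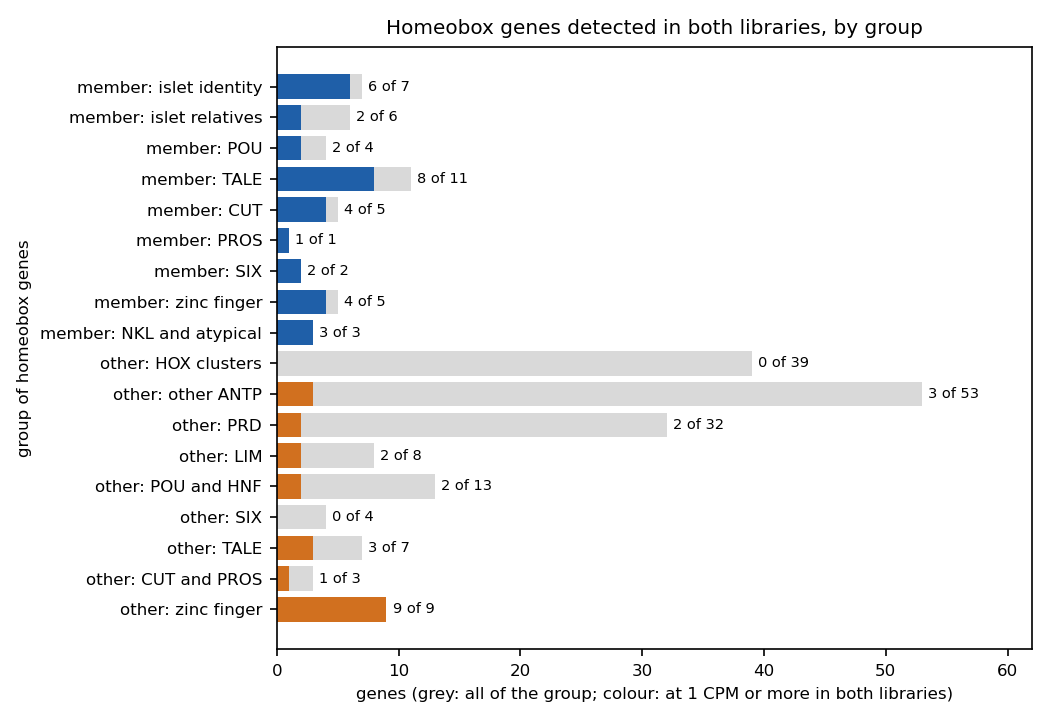
Number of homeobox genes in each group (grey bars) and number at 1 CPM or more in both libraries (coloured, blue for the 44 followed here and orange for the 168 others). The HOX clusters show 0 of 39 and the further zinc-finger genes 9 of 9.

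Partners through which homeodomain proteins act were present. Of 25 cofactor genes, 22 were detected. The LIM cofactor Ldb1, which bridges Isl1 to its partners, had 131 and 93.4 TPM, with a log2 ratio of −0.47 between the libraries, and the bridging proteins Ssbp4 and Ssbp3 had 59.9 and 62.8 TPM and 51.7 and 47.1 TPM. All 6 genes listed here as Groucho-type were detected, led by Tle5 (341 and 316 TPM), Tle3 (33.5 and 34.2 TPM) and Tle2 (26.2 and 22.6 TPM). The Zeb and Tgif corepressor Ctbp1 had 101 and 95.7 TPM, and Ctbp2 had 11.3 and 9.39 TPM. Among 6 partners of Pdx1, all detected, Spop had 136 and 141 TPM, Smarca4 96.9 and 101 TPM and Setd7 39.4 and 31.6 TPM. Pou2af1, the B-cell coactivator of Oct factors, had 8 and 0 reads. One cofactor was called, against 4.31% of all tested genes: Lmo1, a LIM-only protein, with 71 and 135 reads and a log2 ratio of 1.28 (exact binomial test, adjusted p = 4.29e-09).

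All 12 genes listed as targets of islet homeodomain factors were detected. The highest per length were Ins2, Ins1 and Iapp, with 217983 and 230177 TPM, 149022 and 136710 TPM, and 36975 and 38292 TPM. None of the 12 was called between the libraries at 2-fold, against 4.31% of all tested genes, although all 12 passed at any ratio, 5 lower and 7 higher in library 2, against 19% and 13.4% of all tested genes. The targets were read far more deeply than most genes, with a median of 1175 CPM, and the part of depth in this count was not tested.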

How the data were processed

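RNA sequencing of sorted islet cells gave 2 tables, 1 per library of the single group. The deposited raw counts per gene, CPM and TPM values were made by the authors with cutadapt 2.10, STAR 2.7.8a, featureCounts 2.0.2 and build GRCm38.p6, per the submitters' processing notes. The parameters, the strand setting and the treatment of multiply mapped reads were not given in the sources used here. CPM as deposited is each count over its library's total. The deposited TPM implies, within 1%, the merged exon length of GENCODE M21 in 98.3% of 16224 genes checked.

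From the counts, an exact two-sided binomial test per gene against the library totals (SciPy 1.17.1, 10 or more reads summed, 0.5 read added for ratios) was adjusted by Benjamini-Hochberg over all 20681 genes. It was tested on simulated counts that held sampling noise only. Such counts cannot show how the test behaves where libraries differ beyond that noise, as these do. With 1 group of 2 libraries there is no comparison for edgeR's quasi-likelihood test. edgeR 4.0.16 and DESeq2 1.42.0 supplied alternative scaling factors only. Intervals are exact at 95%. Overlaps and 50-base words shared with other genes came from GENCODE M21 and its transcripts.

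Members and gene lists were chosen with earlier results of these data known. Every member is named. Of the 168 other homeobox genes the 10 highest by TPM and those called at a mean of 1 CPM were named, and the top 3 of each cofactor and target list by TPM. Lmo1, Lyz2, Kdr, Flt1, Lepr, Ghsr, the sex-linked genes, Hoxb4, Pou3f1, Pou3f3 and the genes that overlap members were named after their values were seen. Of the marker lists, the top 3 by CPM were, for alpha, Slc7a2, Gcg and Ttr; for beta, Ins2, Ins1 and Iapp; for delta, Sst, Pdx1 and Rbp4; for PP, Ppy, Pyy and Tspan8; for acinar, Ctrb1, Pnlip and Cel; for ductal, Spp1 and Krt7; for endothelial, Esam, Plvap and Pecam1; for mesenchymal, Col3a1, Col1a2 and Rgs5; for immune, C1qa, Cd74 and Cd68; and for glial, Ngfr. Some genes that this rule selects are not reported here. PP markers summed to 981 and 1218 CPM with 4 of 4 detected, and glial markers to 46.3 and 40.4 CPM with 3 of 6.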

Additional observations from a re-analysis of the deposited data

How the results depend on the processing

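The number of detected members was 32, and stayed between 31 and 34 with limits of 0.5 CPM, 5 CPM or 1 TPM. From 1 library alone it was 32 without library 1 and 33 without library 2. The count of members called between the libraries was 1 under edgeR's TMM factors, DESeq2's size factors, no filter on low counts and 1 read added. A limit of 1.5-fold called 2 members, Zeb2 and Nkx6-2, both lower in library 2, against 8.05% of all tested genes. Leaving out a library allows no such call. Under TMM and DESeq2 scaling, 4 uncalled ratios changed sign: Mnx1 (0.0029 and 0.0040), Cux2 (0.020 and 0.021), Cux1 (0.029 and 0.030) and Meis1 (0.014 and 0.016). Of the 18 pairs, 17 passed 2-fold from either library alone, 14 without length scaling and 18 at 1.5-fold. Meis2 over Meis3 turned to a log2 ratio of 0.9998 without length scaling, which follows from the longer exons of Meis2. The other homeobox, cofactor and target genes detected numbered 56, and 56 without library 1 and 61 without library 2, an alternative chosen after seeing the data. No paired analysis was possible because the series has 1 group. Members with under 10 reads were left out of the main test, and Lmx1a, with no read, could not be tested under any setting. The depth of 2 libraries sets only counting error.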
